A study of Bos taurus with 6 samples.

Results

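In 3 bovine cell types profiled by reduced representation bisulfite sequencing (RRBS), the CpGs described here were methylated in blood monocytes and unmethylated in both sperm and skin fibroblasts. They were chosen among the 1542060 CpGs of chromosomes 1 to 29 covered by 5 to 500 reads in all 6 libraries, by the methylated reads summed over the 2 libraries of a cell type and divided by the summed coverage. A CpG was retained when this percentage was above 80% in monocytes and below 20% in both sperm and fibroblasts. There were 5294 such CpGs, which represented 0.343% of the CpGs tested, and they are called monocyte-only CpGs below. The same thresholds gave 2716 CpGs methylated only in fibroblasts (0.176%) and 11986 CpGs methylated only in sperm (0.777%), which serve as the closest sets for comparison.

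Sperm was obtained from commercial straws of Holstein bulls, and monocytes from the blood of Holstein cows by selection of CD14-positive mononuclear cells on magnetic beads. Fibroblasts came from ear skin biopsies of adult Holstein heifers, followed by primary culture over several passages. There were 2 libraries per cell type, each from a different animal, with no genetic modification or treatment. Sex cannot be told apart from cell type for sperm, nor can culture for fibroblasts, and the monocyte libraries were amplified with 12 PCR cycles against 14 for the others. The labelled cell types were not checked against marker genes, because genes of the UMD3.1 assembly were not analysed here, and for the same reason no gene is named and no sequence is shown.

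DNA methylation is the addition of a methyl group to cytosines, in mammals mostly those followed by a guanine (CpGs). It is copied at DNA replication, and it usually spares the CpG-rich stretches called CpG islands, many of which overlap promoters. During development and cell differentiation, some of these stretches gain methylation in one lineage and remain free of it in others. Monocytes are circulating cells of the myeloid lineage, which derives from hematopoietic stem cells, whereas skin fibroblasts are mesenchymal cells and sperm are the end product of the male germline, whose methylation is erased and established anew.

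In RRBS, the enzyme MspI cuts CCGG sites, methylated or not, and short fragments are bisulfite-treated, so that unmethylated cytosines are read as thymines. The coverage summed over CpGs ranged from 45884839 to 78890776 reads per library, and the median coverage of the CpGs tested ranged from 15 to 25 reads. Summed over the 2 libraries of a cell type, the monocyte-only CpGs had a median coverage of 29 reads in monocytes, 36 in sperm and 49 in fibroblasts. Single CpGs are thus measured in coarse steps, and averages over many CpGs are more precise. A percentage of reads is taken over a population of cells, so that an intermediate value cannot separate partial methylation in every cell from full methylation in some cells.

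The monocyte-only CpGs were almost free of methylation in sperm and slightly less so in fibroblasts. Their mean methylation was 92.7% and 92.0% in the monocyte libraries, 7.90% and 8.31% in those of fibroblasts, and 3.12% and 3.05% in those of sperm. The thresholds fix this contrast, and only the spread within each cell type is informative. The median over CpGs was 0% in both sperm libraries, 94.1% and 93.8% in those of monocytes, and 5.56% and 6.25% in those of fibroblasts. No methylated read was found in either sperm library at 2787 of the CpGs (52.6%), while the corresponding number for fibroblasts was 914 (17.3%). Conversely, 1132 CpGs (21.4%) were read as methylated in all reads of both monocyte libraries. Such counts depend on coverage, as extreme values are more likely with fewer reads. The median summed coverage was 36 in sperm, 49 in fibroblasts and 29 in monocytes. The fibroblast percentage was between 10% and 20% at 2105 CpGs (39.8%) and the sperm percentage at 532 (10.0%). For comparison, the 545675 CpGs below 20% in all 3 cell types averaged 1.94% and 1.92% in fibroblasts, 0.658% and 0.649% in sperm, and 1.22% and 1.11% in monocytes.

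**Figure D1:**
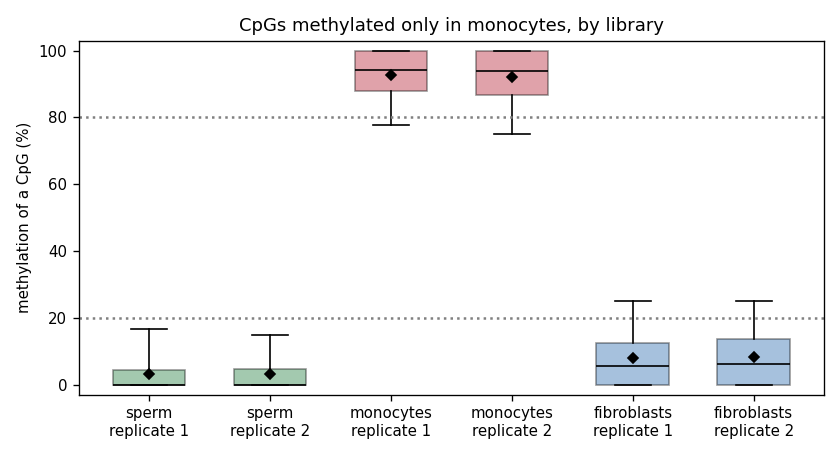
Methylation (%) of the 5294 monocyte-only CpGs in each of the 6 libraries. Boxes span the quartiles with the median as a line, whiskers run from the percentile 5 to the percentile 95, diamonds are means and dotted lines are the thresholds of 20% and 80%; the 2 libraries of a cell type nearly coincide, and the fibroblast boxes lie above those of sperm.

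CpGs pooled above 80% or below 20% cannot differ much between libraries, so that the agreement of replicates at these CpGs is a description. The absolute difference between the 2 libraries had a median of 5.88 points in monocytes, 5.66 in fibroblasts and 0 in sperm. Each of the 6 libraries was past its threshold on its own at 3105 CpGs (58.7%), and both monocyte libraries were above 80% at 4167. Both monocyte libraries exceeded the 4 other libraries at 5293 of the 5294 CpGs, against 9.36% of all CpGs tested, a count that the thresholds almost entirely fix. When the 2 libraries of a cell type were compared with each other by the test described next, 1 monocyte-only CpG was called different between monocyte libraries, 1 between sperm libraries and 10 between fibroblast libraries, while the shares of all CpGs tested were 0.173%, 0.309% and 0.693%.

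Differential methylation was tested at each of the 1580644 CpGs covered by 5 to 500 reads in all 6 libraries on any chromosome, with the likelihood ratio of a logistic model fitted to the summed reads. A CpG was called when its p, adjusted after Benjamini and Hochberg, was below 0.01 and the cell types differed by at least 25 points. All 5294 monocyte-only CpGs were called higher in monocytes than in sperm, against 13.3% of the CpGs tested, and all 5294 were called higher in monocytes than in fibroblasts, against 13.7%. None was called lower in monocytes, when 5.48% of the CpGs tested were lower than in sperm and 3.3% lower than in fibroblasts. Their largest adjusted p in this test of the likelihood ratio was 0.00235 in the comparison with sperm and 0.00276 in the comparison with fibroblasts. Since the CpGs were chosen on these contrasts, the counts show only that the coverage sufficed for a call at each of them. Between fibroblasts and sperm, 0 of them were called, against 12.1% of the CpGs tested with fibroblasts higher and 16.2% with sperm higher. The choice fixes this count too, because both percentages were below 20% and their difference could not reach 25 points. Without a threshold on the difference, 1707 of them (32.2%) had an unadjusted p below 0.05 by the likelihood ratio, against 44.9% of all CpGs tested. In Fisher's exact test 966 (18.2%) did, against 38.3%. The choice bears on these shares too, since it keeps the difference below 20 points.

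Methylation of such CpGs in monocytes alone was uncommon from any of the 3 points of view that the thresholds allow. Of the 571716 CpGs below 20% in both sperm and fibroblasts, 95.4% were also below 20% in monocytes, 3.63% were intermediate and 0.926% were above 80%, the last being the monocyte-only CpGs. Of the 98610 CpGs below 20% in sperm and above 80% in monocytes, 56.7% were above 80% in fibroblasts as well, 37.9% were intermediate there, and 5.37% were below 20%. CpGs methylated in monocytes but not in sperm were therefore mostly methylated in fibroblasts too. Of the 30149 CpGs above 80% in monocytes and below 20% in fibroblasts, 76.0% were above 80% in sperm and 17.6% were below 20%, with only 6.43% in between.

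**Figure D2:**
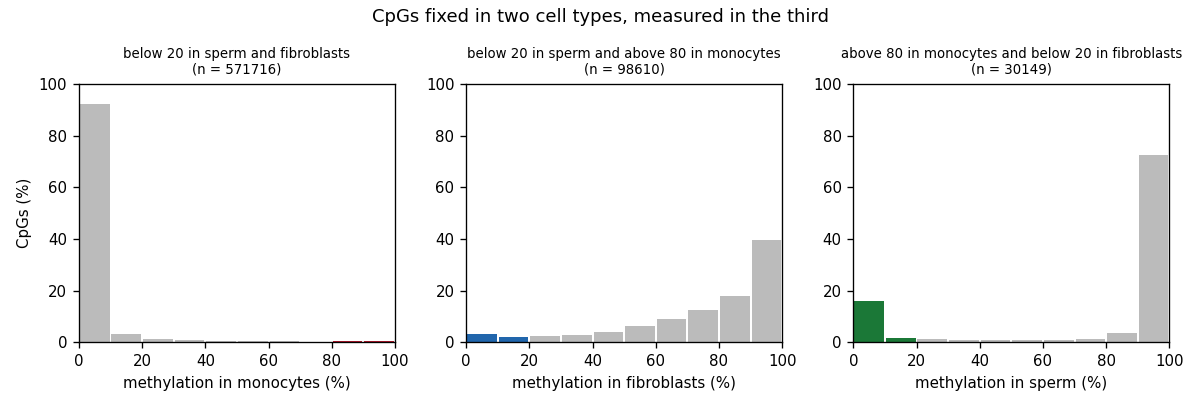
Distribution of methylation (%, bins of 10 points) in the remaining cell type, for CpGs selected on the other two, as a percentage of the CpGs of each panel. Coloured bars hold the monocyte-only CpGs, whose class is 0.926%, 5.37% and 17.6% of the panels from left to right. CpGs between 20% and 80% are 3.63%, 37.9% and 6.43% of the panels in the same order.

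The thresholds cut through a continuous distribution in monocytes and fibroblasts. Just inside the monocyte threshold, 869 CpGs were between 80% and 85%, and 1006 CpGs that met both other thresholds lay just outside, between 75% and 80%. For fibroblasts, 998 CpGs were between 15% and 20% and 1042 between 20% and 25%. For sperm these numbers were 215 and 194. The number of monocyte-only CpGs thus depends on the thresholds, and less so on that of sperm.

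To see how the choice carried over to animals it had not used, CpGs were chosen with the 3 replicate 1 libraries and measured in the 3 replicate 2 libraries, the numbers serving only as names. Of the 6529 CpGs chosen, 3105 met the same thresholds again (47.6%, Wilson 95% confidence interval 46.3 to 48.8). This interval treats CpGs as independent, although neighbours share fragments, and it does not cover the variation between animals. In the libraries not used for the choice, these 6529 CpGs averaged 86.6% in monocytes, 17.5% in fibroblasts and 4.78% in sperm, and monocytes remained above 50% at 95.6% of them. Monocytes were the highest by at least 25 points at 92.1% of them, against 4.2% of all CpGs tested on chromosomes 1 to 29, although fewer passed every threshold. The fibroblast threshold was missed at 33.6%, the monocyte threshold at 26.5% and the sperm threshold at 6.26%. With the choice made in replicate 2 libraries, 5821 CpGs were chosen and 53.3% were retained in replicate 1. For CpGs methylated only in fibroblasts, 53.0% and 47.0% were retained in these directions, and for CpGs methylated only in sperm, 66.9% and 69.0%.

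Monocyte-only CpGs occurred in clusters. When neighbours at most 1000 bp apart were joined, the 5294 CpGs formed 1506 regions, of which 804 held a single CpG (15.2% of the CpGs) and 268 held at least 5. These 268 regions gathered 3346 CpGs (63.2%), and 38 regions of at least 20 gathered 1284 (24.3%). The 268 regions had a median of 9 monocyte-only CpGs and a median span of 302.5 bp, with quartiles of 156 and 586 bp. CpGs methylated only in fibroblasts were distributed similarly, with 70.4% in regions of at least 5 and 26.3% in regions of at least 20. CpGs methylated only in sperm were less often in large regions, with 56.2% in regions of at least 5 and 8.43% in regions of at least 20, a difference that was not tested. These shares were not adjusted for the density of tested CpGs. The median number of other tested CpGs within 250 bp was 14 for monocyte-only, 16 for fibroblast-only and 7 for sperm-only CpGs, against 12 for all tested CpGs.

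**Figure D3:**
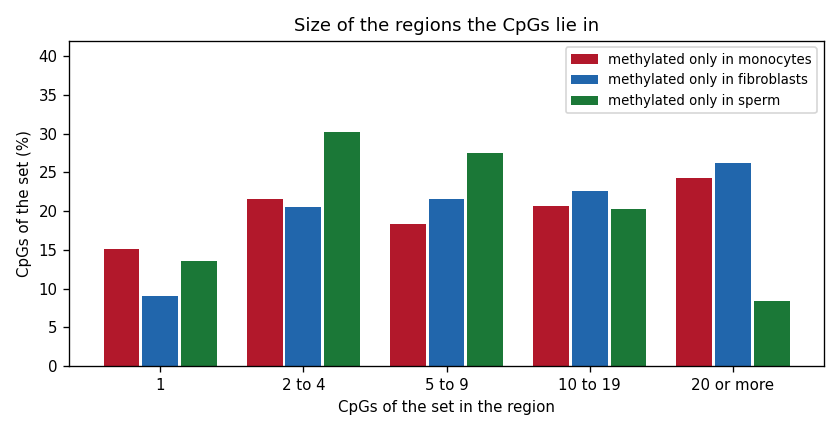
Percentage of the CpGs of each set (vertical axis) by the number of CpGs of the set in the region they lie in (horizontal axis). The class of 20 or more holds 24.3% of the monocyte-only CpGs, 26.3% of the fibroblast-only CpGs and 8.43% of the sperm-only CpGs.

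Single CpGs and clustered CpGs differed in how far they were from the thresholds. The 804 single CpGs averaged 88.6% ± 0.708 in monocytes, 11.9% ± 0.277 in fibroblasts and 5.08% ± 0.306 in sperm (SD, n = 2 libraries). The 3346 CpGs in regions of at least 5 averaged 93.8% ± 0.290, 6.71% ± 0.354 and 2.33% ± 0.0441. Single CpGs also lay in sparser surroundings, with a median of 7 other tested CpGs within 250 bp against 18. Part of this difference is built in, because a region of at least 5 needs several tested CpGs close together. The nearest tested CpG mostly had the same direction, however. At 766 of the 804 single CpGs another CpG was tested within 100 bp, and at 74.5% of these the nearest one was also highest in monocytes by at least 25 points. Measured in the replicate 2 libraries alone, 4.2% of all CpGs tested on chromosomes 1 to 29 were. For CpGs in larger regions the nearest tested CpG is often another monocyte-only CpG, so that their shares of 95.3% in regions of 2 to 4 and 99.2% in regions of at least 5 follow in part from how regions were formed. The nearest tested CpG of a single CpG was below 20% in all 3 cell types in 29 cases and above 80% in all 3 in 8. Such neighbours often lie on the same sequenced fragments and are not independent measurements.

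Inside the 268 regions, the other CpGs mostly followed the same pattern with less contrast. The spans held 5065 tested CpGs, of which 66.1% were monocyte-only, and in 47 regions every tested CpG was. The 1719 tested CpGs that were not monocyte-only averaged 80.6% in monocytes, 23.5% in fibroblasts and 4.75% in sperm. Among them, 971 missed the fibroblast threshold, 722 the monocyte threshold and 145 the sperm threshold, and 1030 (59.9%) were above 60% in monocytes and below 40% in both others. Only 37 were below 20% in all 3 cell types, and 0 were above 80% in all 3. These 1719 CpGs lie between chosen CpGs and often on the same sequenced fragments, so that the choice largely sets their pattern. The share of all tested CpGs above 60% in monocytes and below 40% in both others was not computed. The spans also held 602 positions that could not enter the choice because at least 1 library lacked 5 to 500 reads at that position. Another position was listed 1 bp away from 204 of them, so that some are a single CpG listed at different positions in different libraries. There, methylation was 88.5% and 88.9% in the monocyte libraries, 10.5% and 12.6% in the fibroblast libraries, and 2.19% and 2.90% in the sperm libraries. Monocytes exceeded the other libraries by 81.6 points at these positions (two-sided exact permutation test over libraries, p = 0.0667, which is the smallest that 2 libraries against 4 allow). These positions lie between chosen CpGs and often on the same sequenced fragments. The choice therefore largely fixes this order, and the p is not separate evidence.

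The 268 regions were spread over all 29 autosomes. Their mean in monocytes ranged from 82.3% to 99.6%, with a median of 93.3%, and the medians of the region means were 7.06% in fibroblasts and 1.72% in sperm. Fibroblasts were above sperm in 211 regions (78.7%). The monocyte libraries were within 5 points of each other in 190 regions. The largest difference between them, 33.1 points, was at chr2:121721441-121721537, where 5 monocyte-only CpGs averaged 98.8% in replicate 1 and 65.7% in replicate 2; this region was singled out after its values were seen.

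The 12 regions with the most monocyte-only CpGs are described by their UMD3.1 coordinates and the mean over their monocyte-only CpGs in each library. Region 1, chr25:26847463-26848091, held 74 monocyte-only CpGs of 78 tested over 629 bp. Its mean was 98.4% and 93.9% in the monocyte libraries, 0.775% and 0.785% in the sperm libraries, and 11.7% and 7.83% in the fibroblast libraries. It had the highest fibroblast mean of the 12 regions, and its 5 tested flanking CpGs within 1 kb were at 99.2% in monocytes, 35.4% in fibroblasts and 2.47% in sperm. Monocyte methylation therefore ran past the limits that the thresholds set to this region, into CpGs at which fibroblasts were intermediate.

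Regions 2 and 12 lay 139 kb apart on chromosome 7. Region 2, chr7:40362457-40363358, had 59 monocyte-only CpGs of 63 tested, with means of 95.3% and 95.9% in monocytes, 2.62% and 3.95% in fibroblasts, and 2.24% and 4.72% in sperm. It was the only one of the 12 in which the sperm mean, 3.48%, was above the fibroblast mean, 3.28%, and the libraries of both cell types overlapped. Region 12, chr7:40222251-40223100, had 40 of 40, with means of 97.0% and 98.4% in monocytes, 4.69% and 3.98% in fibroblasts, and 0.750% and 0.473% in sperm. The contrast was not found further away where CpGs were tested, since the 16 CpGs tested at 1 to 5 kb from region 2 averaged 98.3% in sperm and 49.2% in monocytes, and the 9 tested around region 12 averaged 95.5% and 98.7%.

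On chromosome 18, region 3 (chr18:53314630-53315176) had 53 monocyte-only CpGs of 55 tested. Its means were 96.0% and 96.3% in monocytes, 6.26% and 4.49% in fibroblasts, and 1.08% and 1.31% in sperm. Region 6 (chr18:13825664-13826211), with 45 of 49, had means of 95.03% and 94.7% in monocytes, 6.57% and 3.72% in fibroblasts, and 0.757% and 0.207% in sperm. The 37 CpGs tested within 1 kb of region 6 averaged 97.8% in monocytes, 70.9% in fibroblasts and 6.34% in sperm. Fibroblasts varied among them, and monocytes were highest by at least 25 points at 18.

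Regions 4 and 8 were bordered on the side of lower coordinates by CpGs that were unmethylated in the 3 cell types. Region 4, chr27:32684355-32685620, had 51 monocyte-only CpGs of 64 tested, with means of 96.4% and 94.6% in monocytes, 4.53% and 6.08% in fibroblasts, and 0.626% and 0.759% in sperm. Of the 22 CpGs tested within 1 kb of it, the 21 on that side were below 20% in all 3 cell types, and the remaining one, on the other side, was highest in monocytes by at least 25 points. Region 8, chr8:8404975-8406404, had 44 of 46, with means of 95.6% and 95.4% in monocytes, 3.19% and 3.14% in fibroblasts, and 0.718% and 0.990% in sperm. No CpG was tested within 1 kb of it, and all 53 tested at 1 to 5 kb, which lay on that side, were below 20% in all 3 cell types.

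The other 5 regions showed the same separation of libraries. Region 5 (chr9:44359329-44360065, 49 of 57 tested) had means of 98.1% and 97.5% in monocytes, 6.62% and 9.62% in fibroblasts, and 0.350% and 0.551% in sperm. Region 7 (chr1:145106975-145108150, 45 of 49) had 98.3% and 98.4% in monocytes, 5.43% and 4.48% in fibroblasts, and 0.868% and 0.826% in sperm. On one side of region 5, the 8 CpGs tested at 1 to 5 kb were above 80% in all 3 cell types, whereas the 14 tested within 1 kb of region 7 were all highest in monocytes by at least 25 points. Region 9 (chr19:38564252-38564757, 41 of 41) had 97.4% and 97.0% in monocytes, 6.11% and 4.54% in fibroblasts, and 1.11% and 1.68% in sperm. Region 10 (chr4:69353198-69354296, 41 of 53) had 92.6% and 93.6%, 8.48% and 5.93%, and 0.634% and 0.442% in the same order. Region 11 (chr2:122098796-122100115, 41 of 53) had 95.5% and 96.4%, 3.52% and 5.13%, and 1.05% and 0.553%, with no CpG tested around it within 5 kb. In none of the 12 regions did the mean of a monocyte library come within 80 points of that of another cell type. Within regions, the lowest value of a single CpG in a monocyte library ranged from 68.4% to 83.3%, the highest in a fibroblast library from 19.05% to 31.6%, and the highest in a sperm library from 5.56% to 42.9%, the last in region 2.

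**Figure D4:**
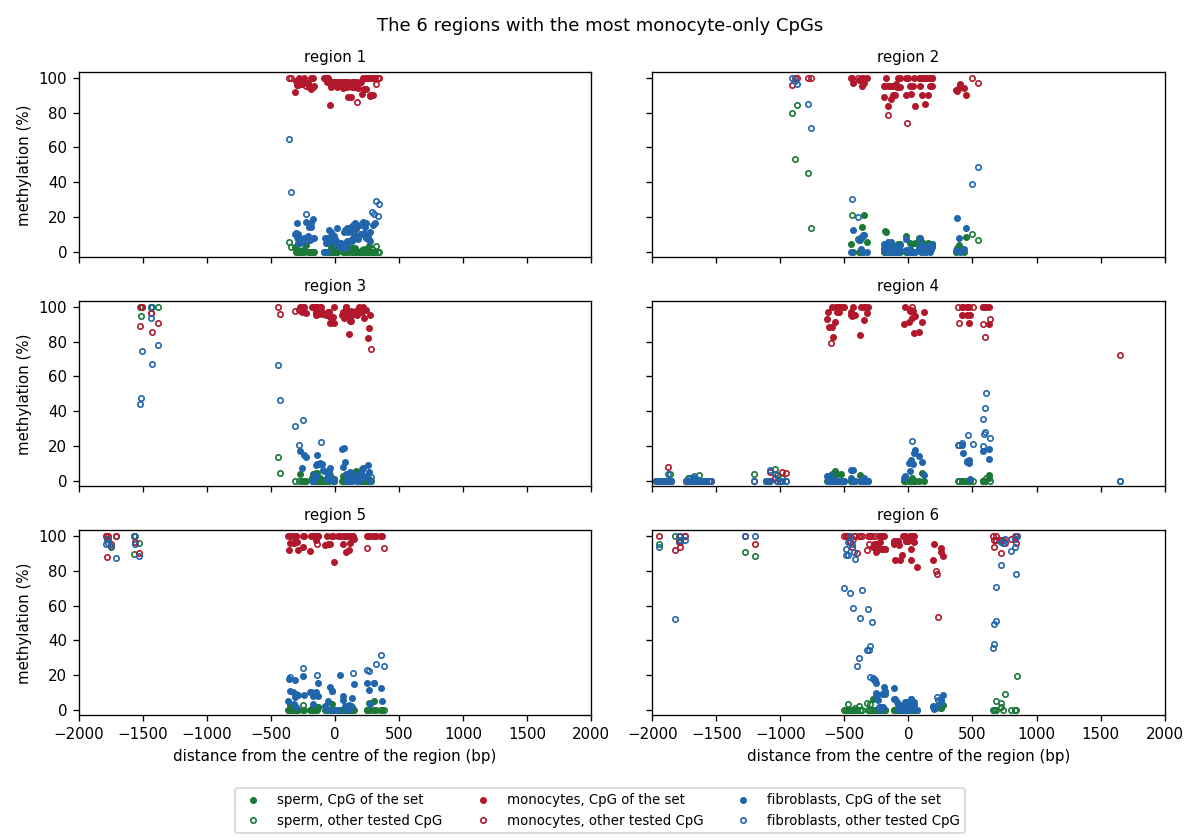
Methylation (%, mean of the 2 libraries of a cell type) of each tested CpG against the distance (bp) from the centre of the region, for regions 1 to 6. Filled symbols are monocyte-only CpGs and open symbols other tested CpGs within 2000 bp. The CpGs to the left of region 4 are unmethylated in all cell types. Nearest to region 6 on both sides, CpGs are methylated in monocytes, low in sperm and at varied levels in fibroblasts.

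Some regions lay close together. When regions at most 100 kb apart were grouped, a choice made after the regions were known, the group with the most monocyte-only CpGs was chr4:69304933-69395761, with 162 of them in 11 regions, 7 of which had at least 5. It contains region 10. Their means in this group were 92.2% and 93.7% in monocytes, 6.14% and 6.80% in fibroblasts, and 1.01% and 1.51% in sperm. The group on chromosome 19 that contains region 9, chr19:38501890-38586546, had 89 in 8 regions, with 94.9% and 94.2% in monocytes, 7.28% and 6.70% in fibroblasts, and 0.806% and 2.83% in sperm. In both groups the monocyte-only stretches alternated with unmethylated ones. Of the 817 CpGs tested in the first group, 412 were below 20% in all 3 cell types and 0 were above 80% in all 3, and of the 665 in the second, 382 and 0. Over all tested CpGs of the first group, methylation was 31.8% and 32.2% in monocytes, 12.8% and 14.3% in fibroblasts, and 3.34% and 3.50% in sperm.

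Around the regions of at least 5, the monocyte methylation declined over short distances. Inside the regions, tested CpGs averaged 89.3% ± 0.551 in monocytes, 12.4% ± 1.04 in fibroblasts and 3.16% ± 0.0326 in sperm (SD, n = 2 libraries). At 1 to 100 bp they averaged 73.7%, 27.2% and 4.95%, and at 100 to 300 bp 52.8%, 27.9% and 5.38%, and since regions end at the last CpG that met the thresholds, part of this step is set by the choice. At 300 to 600 bp all cell types were low, with 31.5% in monocytes, 22.9% in fibroblasts and 10.1% in sperm. At 2 to 3 kb the averages were 48.5%, 43.8% and 44.6%, and the cell types were within 5 points of each other, but at 3 to 5 kb monocytes were again higher, with 54.5%, 47.4% and 46.6%. In the 209 regions with at least 3 CpGs tested at 1 to 5 kb, the flanks were below 20% in all 3 cell types for 41 and above 60% in all 3 for 68. Monocytes were highest by at least 25 points in the flanks of 23 regions.

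**Figure D5:**
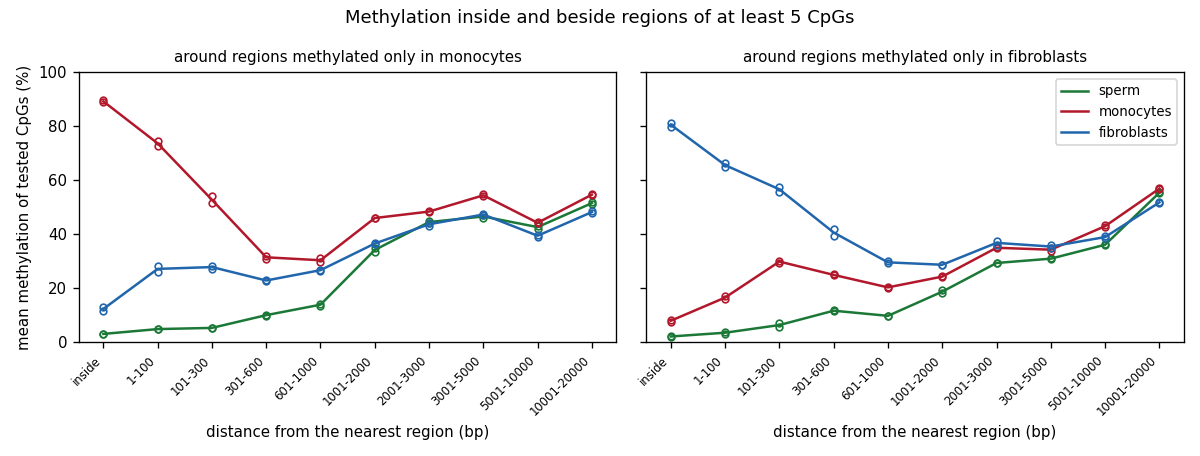
Mean methylation (%) of tested CpGs inside regions of at least 5 CpGs and in bins of distance (bp) outside them, for monocyte-only regions (left) and fibroblast-only regions (right). Lines join the means of each cell type and circles are the libraries; monocytes fall from 89.3% inside to 31.5% at 300 to 600 bp, and sperm rises from 3.16% to 34.2% at 1 to 2 kb.

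Neighbouring CpGs that could not enter the choice were tested separately, at 300 to 1000 bp from the nearest monocyte-only CpG, a distance beyond the fragments of 40 to 290 bp. Of the 5798 such CpGs, each library was averaged over the 3687 to 4952 that it covered at least 5 times. The libraries were thus averaged over partly different CpGs, here and at the other distances. Methylation was 43.1% ± 0.370 in monocytes, 31.7% ± 0.200 in fibroblasts and 14.5% ± 1.05 in sperm (SD, n = 2 libraries). The monocyte libraries were the highest, but their difference of 20.02 points from the other libraries was not the most extreme of the possible splits (two-sided exact permutation test, p = 0.133), as sperm differed from the other libraries by more. Fibroblasts exceeded sperm by 17.3 points there (exact permutation test, p = 0.333, the smallest that 2 against 2 libraries allow). Within 100 bp, the 2459 such CpGs were at 81.4% in monocytes, 23.0% in fibroblasts and 6.37% in sperm, with a difference of 66.7 points (exact permutation test, p = 0.0667). At that distance CpGs often share fragments with the chosen ones, so this order is largely fixed by the choice. At 1000 to 5000 bp the difference was 13.1 points (exact permutation test, p = 0.0667), close to the 9.19 points found over all 651238 such CpGs of the autosomes.

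Tested CpGs were slightly denser around monocyte-only CpGs than around tested CpGs as a whole. The median number of other tested CpGs within 250 bp was 14, with quartiles of 7 and 22. It was 16 for fibroblast-only CpGs and 7 for sperm-only CpGs, and CpGs below 20% in all 3 cell types had a median of 21, those above 80% in all 3 a median of 8, and all tested CpGs 12. Monocyte-only CpGs thus lay between the unmethylated and the methylated CpGs in this respect. They were also less frequent near the end of chromosomes: 15.7% lay within 5 Mb of the last covered position, when 25.7% of all tested CpGs, 21.6% of fibroblast-only CpGs and 34.1% of sperm-only CpGs did. The share was 11.4% for CpGs below 20% in all 3 cell types, which were similarly less frequent there. These shares are descriptions and were not tested.

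The number of monocyte-only CpGs differed between chromosomes. It was highest on chromosome 7, with 464 CpGs and 25 regions of at least 5, followed by chromosomes 19 (423) and 18 (414). As a percentage of the CpGs tested, chromosome 7 (0.693%) was followed by chromosomes 27 (0.574%) and 4 (0.567%), and the lowest percentage was found on chromosome 6, with 61 CpGs (0.126%) and 1 region of at least 5. These percentages include local groups: 162 of the 291 on chromosome 4 and 69 of the 144 on chromosome 27 lay in 1 group each. On chromosome 7 the largest group held 59 of the 464. Relative to the CpGs below 20% in both sperm and fibroblasts, chromosome 27 ranked first with 2.03% and chromosome 6 last with 0.364%. Fibroblast-only CpGs were not distributed alike, since chromosome 6 had 141 of them and chromosome 27 had 6.

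Relative to all tested CpGs, the coverage of monocyte-only CpGs was lower in both monocyte libraries than in the 4 others. Coverage entered the choice through its limits and as the denominator of the percentages. The tests below are therefore not separate from the choice. Their median coverage, relative to that of all tested CpGs of the same library, was 0.878 ± 0.0157 in monocytes and 1.04 ± 0.0247 in the 4 other libraries (SD), a difference of -0.158 (two-sided exact permutation test, p = 0.0667, which is the smallest possible). A difference of the same sign was found for the other sets in their own cell type, with -0.147 for fibroblast-only CpGs in fibroblasts and -0.126 for sperm-only CpGs in sperm (exact permutation tests, p = 0.0667 for both). CpGs below 20% in all 3 cell types had a difference of -0.0381 in monocytes (exact permutation test, p = 0.467). Those above 80% in all 3 had differences of 0.0142 in monocytes, 0.0173 in sperm and -0.0315 in fibroblasts (exact permutation tests, p = 0.867, 0.733 and 0.333). The part of this coverage difference in the methylation percentages was not tested.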

How the data were processed

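RRBS was carried out by the authors on 2 sperm, 2 monocyte and 2 fibroblast libraries, as paired-end reads of 75 bp from MspI fragments of 40 to 290 bp. Per the labels and the study's methods, reads were trimmed with Trim Galore 0.3.7, mapped with Bismark 0.14.3 on UMD3.1, and tabulated for methylKit. For each CpG, the authors deposited the coverage in counts of reads, without normalization or filtering on coverage. The deposited percent of methylated reads has 1 decimal, further decimals being left off. Methylated reads were recovered as the nearest whole number to coverage times this percent, and 0 values failed to return the percent within 0.101 points. The same CpG can be listed at positions 1 bp apart in different libraries, and 18.3% of the 5005293 positions could be joined in this way, which was tried as an alternative. Columns of per-sample values left unused numbered 0.

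The monocyte-only CpGs, the regions and the tests were chosen with earlier results of these data known. Groups were taken from the titles of the samples. Replicate numbers name animals and do not pair libraries. CpGs were called by the likelihood ratio of a logistic model fitted to summed reads, with Benjamini-Hochberg adjustment over 1580644 CpGs, an adjusted p below 0.01 and a difference of at least 25 points. Each cell type had 2 animals, so that p-values on reads do not cover the variation between animals. Confidence intervals treat CpGs as independent, and cover neither the dependence of neighbouring CpGs nor the variation between animals. Values per library were compared with two-sided exact permutation tests. Regions are runs of monocyte-only CpGs at most 1000 bp apart, and the 12 with the most of them were named, shorter regions first in case of a tie. The call test was tested on simulated data. Alternatives were other limits of coverage, other thresholds, thresholds met by each library, each library left out, other distances, Fisher's exact test, a Cochran-Mantel-Haenszel test, a common overdispersion and an adjusted p below 0.05. Computations used scipy 1.17.1, numpy 2.4.6, numba 0.67.0, matplotlib 3.10.9 and pandas 2.3.3 under Python 3.11.15.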

Additional observations from a re-analysis of the deposited data

Results flagged for a closer look

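The choice was limited to chromosomes 1 to 29, but CpGs with the same pattern were present elsewhere. On the X chromosome, 51 of 28511 tested CpGs (0.179%) met the thresholds, in 24 regions. Their means were 89.6% and 90.7% in the monocyte libraries, 6.79% and 6.51% in the fibroblast libraries, and 5.81% and 4.81% in the sperm libraries. The largest X region, chrX:140176959-140177588, held 14 such CpGs, at 95.6% and 94.8% in monocytes, 0.620% and 0.858% in fibroblasts, and 0.881% and 0.896% in sperm. Libraries from bulls had 0.556 and 0.6 times the autosomal median coverage on the X chromosome, and libraries from cows and heifers 0.867 to 0.923 times.

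On unplaced sequences, 29 of 10073 tested CpGs (0.288%) met the thresholds, at 91.2% and 86.4% in monocytes, 9.32% and 6.50% in fibroblasts, and 6.93% and 3.79% in sperm. Among autosomal CpGs covered by more than 500 reads in at least 1 library, 2 of 11767 met them.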

How the results depend on the processing

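The number of monocyte-only CpGs depended on the limits chosen. It was 3100 with a coverage of 10 to 500 reads, 1953 with thresholds of 90% and 10%, 11386 with thresholds of 70% and 30%, and 3105 when each library had to meet the thresholds, against 5294. The number called against sperm and the number called against fibroblasts were the same as these, except 11357 and 11315 at 70% and 30%, where 818 were called between fibroblasts and sperm. Leaving out each library gave 5473 to 6287 CpGs, of which 5464 to 6287 were called against sperm and 5473 to 6264 against fibroblasts. The shares in regions of at least 5, main value 63.2%, were 61.1%, 64.6%, 51.8% and 64.8% under the 4 changes in the order above, 58.7% when regions were joined within 200 bp, and 58.3% to 62.3% without each library. The shares within 5 Mb of the last covered position were 11.5% at 90% and 10%, 16.9% at 70% and 30%, 13.4% with each library past the thresholds, and 14.9% to 17.1% without each library, and 8.52% lay within 2 Mb and 26.2% within 10 Mb. The median number of tested CpGs within 250 bp was 10, 15, 12 and 15 under the 4 changes and 13 to 14 without each library, and it was 8 within 100 bp and 28 within 1000 bp. The share retained in replicate 2 libraries was 50.8% with a coverage of 10 to 500 reads and 38.4% at 90% and 10%, and it was 53.3% in the reverse direction. Leaving out a library changed both the coverage required and the percentage of its cell type, and the cause of these differences was not tested.

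The difference at neighbouring CpGs was between 17.9 and 24.4 points without each library, and the coverage difference between -0.168 and -0.125. Both kept their direction under the 14 and 12 alternatives run. The ratio of monocyte-only to fibroblast-only CpGs stayed within 1.75 and 2.16 without each library, against 1.95. In the 12 named regions the difference between monocytes and the other libraries was between 86.8 and 96.8 points in all 144 values. Joining positions 1 bp apart, an alternative added after seeing the data, gave 5867 monocyte-only CpGs. Deviations of libraries with the same replicate number were not correlated (r between -0.00325 and 0.00421), and a replicate block by the Cochran-Mantel-Haenszel method gave 5294 calls against sperm, 5294 against fibroblasts and 0 between fibroblasts and sperm. With a common overdispersion, 5290 and 5266 were called against sperm and fibroblasts. Coverage limits single CpGs most in monocytes, where the median was 16 and 13 reads per library.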
